A study of Mus musculus with 9 samples.

Results

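The 10 genes described here encode the core regulators of the G1 phase of the cell cycle. They were taken by symbol: the D-type cyclins Ccnd1, Ccnd2 and Ccnd3, the E-type cyclins Ccne1 and Ccne2, the kinases Cdk4 and Cdk6, the Cip/Kip inhibitors Cdkn1a and Cdkn1b, and the INK4 inhibitor Cdkn2c. Each symbol matched 1 row among the 41214 features of the deposited table. The study sorted ventricular endothelial cells of E17.5 mouse embryos and sequenced their polyA RNA, with 3 libraries for each of 3 populations. All embryos carried the transgenes Nes-Gfp and Nes-CreER, driven by Nes, and a Tomato reporter at R26, and had received 0.1 ug tamoxifen at E15.5. All cells were viable, negative for Ter119 and CD45, and positive for CD31 and GFP.

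The endocardial population was sorted on those criteria alone, as the gate is written, so that it names no condition on endomucin or Tomato. The arterial population, enriched for intramyocardial arteries and capillaries, was low in endomucin and Tomato-positive. The venous population, enriched for subepicardial veins, was low in endomucin, Tomato-negative and low in GFP. Arterial and venous together are called coronary. Whether replicates are separate animals is not stated in the labels, so the p-values reflect variation among these 9 libraries, and part of it may be technical.

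In early G1, growth signals raise D-type cyclins, which bind Cdk4 or Cdk6 and begin to phosphorylate the retinoblastoma protein. E-type cyclins with Cdk2 complete this step, and E2F factors then switch on the genes of DNA replication. INK4 inhibitors block Cdk4 and Cdk6 directly, while Cip/Kip inhibitors bind cyclin-kinase complexes more broadly. In developing vessels, endothelial cells leave the cell cycle as arteries mature, and Cip/Kip inhibitors are among the genes associated with that exit.

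The libraries held 12750553 to 19474419 counts and 17130 to 21221 genes with a count above 0. Endocardial replicate 1 stood apart from its group, with 21101 such genes against 17337 and 17130 in replicates 2 and 3. Replicate 1 also had the most in the arterial (21221 against 19610 and 20359) and venous populations (19755 against 19299 and 18462). The gene Gm42418 took from 3.3% of counts in arterial replicate 1 to 11.09% in endocardial replicate 3. The 10 markers of endocardium summed to 4011 to 4944 CPM (counts scaled to library size, TMM) in endocardial libraries, 97.1 to 115 in arterial and 303 to 439 in venous libraries, and the 7 capillary markers to 927 to 1211, 5626 to 7179 and 5149 to 6717 CPM. Markers of other cells also differed. Fibroblast markers (10 genes, none at 0 in all libraries) summed to 1614 to 1961 CPM in endocardial, 103 to 118 in arterial and 1387 to 1627 in venous libraries, with 6 of 10 called higher in endocardial than in coronary libraries. Mural markers (9 genes) summed to 79.7 to 150, 535 to 844 and 235 to 343 CPM in the same populations (1 called higher and 3 lower), and epicardial markers (6 tested) to 25.4 to 31.9, 182 to 211 and 156 to 185 CPM (1 lower). Cardiomyocyte markers (11 tested) summed to 529 to 613, 282 to 409 and 422 to 585 CPM, with 2 higher, and lymphatic markers (6 tested) to 690 to 798, 84.5 to 113 and 123 to 205 CPM, with 4 higher. Erythroid and platelet markers (8 tested) summed to 78.1 to 211 CPM in endocardial, 463 to 1058 in arterial and 199 to 337 CPM in venous libraries, with 1, the globin gene Hbb-bs, lower (log2 -2.14 ± 0.52, adjusted p = 0.0356), although Ter119-positive cells were gated out. Their part in the results below was not tested. In sorted bulk cells, a smaller share of expressing cells and less RNA per cell cannot be told apart.

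To compare genes with each other, levels were divided by exonic length. In endocardial libraries Ccnd2 was highest at 81.6 ± 23.3 CPM per kb (SD, n = 3), before Cdk4 at 64.8 ± 20.8 and Ccnd1 at 61.9 ± 19.6. Within each endocardial library Ccnd2 was also the highest, although each level varied among the libraries. In arterial libraries Ccnd1 led at 98.2 ± 17.4 CPM per kb, before Cdk4 at 40.0 ± 4.41, Ccnd2 at 18.6 ± 3.13 and Cdkn1b at 13.7 ± 1.61. In venous libraries the order was Ccnd1 (159 ± 50.7), Cdk4 (54.8 ± 4.51), Cdkn1b (20.6 ± 0.569) and Ccnd2 (18.1 ± 0.981). Ccnd3, Cdkn1a and Ccne2 lay between 3.12 and 12.6 CPM per kb in all populations, and Cdkn1b in endocardial libraries at 8.98 ± 2.02. Cdk6 stayed at 2.35 to 3.45, Cdkn2c at 1.08 to 2.56 and Ccne1 at 1.08 to 1.45 CPM per kb. The exonic length covers all annotated transcripts, so that genes with long alternative ends, such as Cdk6 with 13989 bases, may be placed too low.

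**Figure D1:**
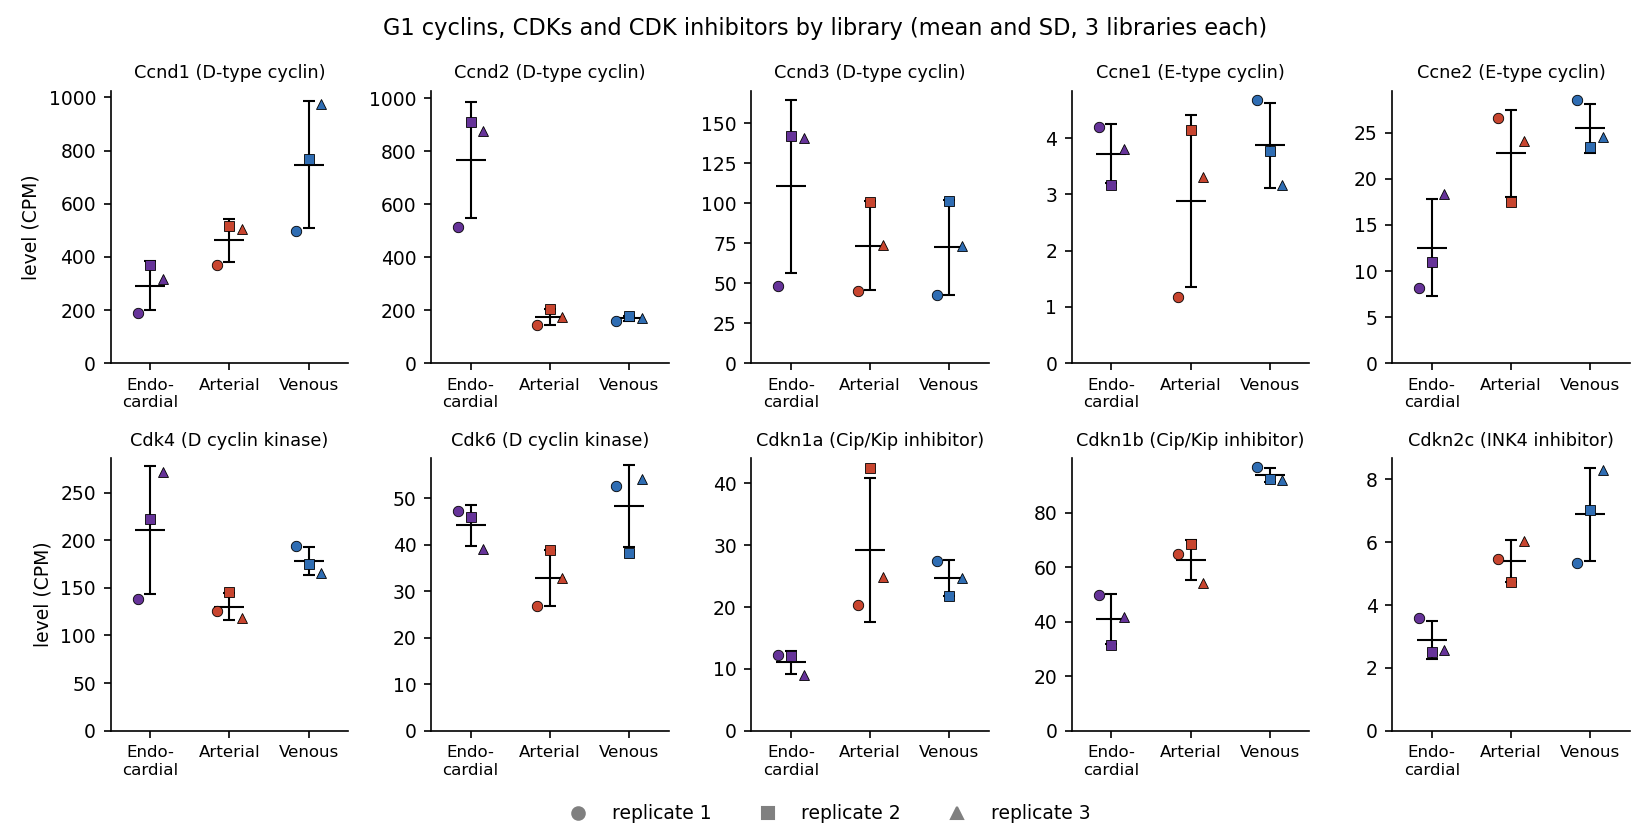
Level of each gene (CPM, linear axis from 0) in the 3 endocardial, 3 arterial and 3 venous libraries; symbols give the replicate number, the horizontal mark the mean and the bars the SD. Ccnd2 is at 516 CPM or above in all endocardial libraries, while Cdkn1a and Cdkn1b are lowest there.

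Endocardial libraries were set against coronary ones, arterial and venous averaged on the log scale, to ask which G1 genes separate endocardium from coronary endothelium. Ccnd2 was higher in endocardial libraries, while Ccnd1, Ccne2, Cdkn1a and Cdkn1b were lower. The other 5 genes were not called at an adjusted p under 0.05 (edgeR quasi-likelihood test, Benjamini-Hochberg over 17103 genes). Thus 1 of 10 genes rose and 4 fell, where 6.91% of all tested genes were called higher and 7.0% lower. The median log2 fold change was -0.38 over the 10 genes and 0.08 over all genes. The libraries of the populations did not overlap for 4 of the 10 genes, namely Ccnd2, Cdkn1a, Cdkn1b and Cdkn2c, against 17.6% of all genes. All 10 genes passed the filter for low counts.

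Ccnd2 (chromosome 6, 127125162 to 127152193, minus strand, GRCm38) encodes cyclin D2, which is induced by mitogens in many tissues. It had 516, 911 and 878 CPM in endocardial replicates 1, 2 and 3, against 146, 205 and 174 CPM in the arterial and 161, 179 and 170 CPM in the venous libraries. The lowest endocardial library was 516 CPM and the highest coronary library 205 CPM, so that the populations did not overlap. Ccnd2 was 4.45-fold higher in endocardial libraries (log2 2.15 ± 0.17 SE, adjusted p = 1.08e-07). The call held with each library left out in turn, at log2 2.00 to 2.37.

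Ccnd1 (chromosome 7, 144929931 to 144939925, minus strand) encodes cyclin D1, the D-type cyclin most tied to growth factor signals in endothelium. It had 189, 369 and 316 CPM in endocardial libraries, against 368, 515 and 505 CPM in arterial and 499, 769 and 975 CPM in venous libraries. Endocardial replicate 2 reached the lowest arterial library, while venous libraries were all above the endocardial ones. Ccnd1 was 2.02-fold lower in endocardial libraries (log2 -1.01 ± 0.25, adjusted p = 0.0206). The call ended without arterial replicate 2 (0.0663) or 3 (0.0746), endocardial replicate 3 (0.0672) or venous replicate 2 (0.0765). On GENCODE release M21, 23.4% of its exonic bases are shared with the gene LTO1 on the other strand, and without a stated strand such reads cannot be told apart.

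Because Ccnd2 and Ccnd1 differed in opposite directions, the make-up of D-type cyclin RNA differed between populations. Per kb, Ccnd2 made up 54.5%, 50.6% and 52.9% of the summed D-type cyclin level in the endocardial libraries, against 15.7%, 15.3% and 13.8% in arterial and 13.4%, 9.82% and 7.74% in venous libraries. Ccnd1 made up 40.0%, 40.9% and 38.0% in endocardial libraries, against 76.7% to 79.9% in arterial and 82.9% to 88.7% in venous libraries. The share of Ccnd2 varied little among endocardial libraries, although endocardial replicate 1 had lower levels of both genes. The ratio of Ccnd2 to Ccnd1 counts was 2.72, 2.47 and 2.78 in endocardial libraries, 0.397, 0.398 and 0.345 in arterial and 0.322, 0.233 and 0.174 in venous libraries. The summed D-type cyclin level, 101 to 191 CPM per kb in endocardial, 98.8 to 143 in arterial and 128 to 234 in venous libraries, overlapped between populations. These shares describe the same counts as the tests above and carry no test of their own.

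**Figure D2:**
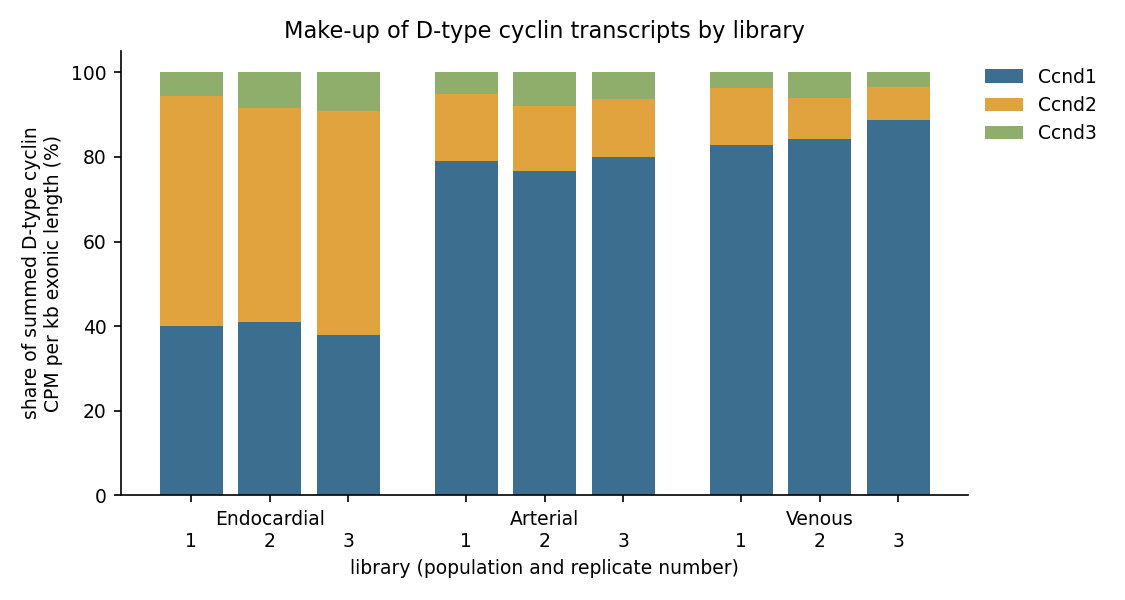
Share of Ccnd1, Ccnd2 and Ccnd3 in the summed D-type cyclin level (CPM per kb of exonic length, in percent) for each library. Ccnd2 takes 50.6% to 54.5% in the endocardial libraries and at most 15.7% in the coronary ones.

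Ccnd3 (chromosome 17, 47505051 to 47599691, plus strand) encodes cyclin D3, which is widely expressed in differentiating cells. It had 48.3, 142 and 141 CPM in endocardial libraries, against 45.1, 101 and 74.1 CPM in arterial and 42.5, 102 and 73.3 CPM in venous libraries. Within each replicate number the arterial and venous values lay close together, and replicate 1 was the lowest library of every population. Ccnd3 was not called (log2 0.60 ± 0.42, adjusted p = 0.475), but it was with the replicate number as a block (log2 0.54, adjusted p = 0.0277). A test of the replicate number itself, added after the values were seen, called Ccnd3 (adjusted p = 0.00897) and 0.357% of all genes. Ccnd3 was 1.31 higher in replicate 2 and 1.02 higher in replicate 3 than in replicate 1 on the log2 scale. None of the other 9 genes was called for the replicate number in edgeR, and Ccnd1 and Ccnd2 were under an unadjusted p of 0.05. Ccnd1 stood nearest at adjusted p = 0.0561, with replicate 1 again lowest in each population, and its values were 0.69 and 0.72 higher in replicates 2 and 3. Replicate 1 was also lowest in each population for Ccnd2, which was 0.48 and 0.36 higher in replicates 2 and 3 (adjusted p = 0.435). The labels call this number a batch and do not say what it stands for.

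**Figure D3:**
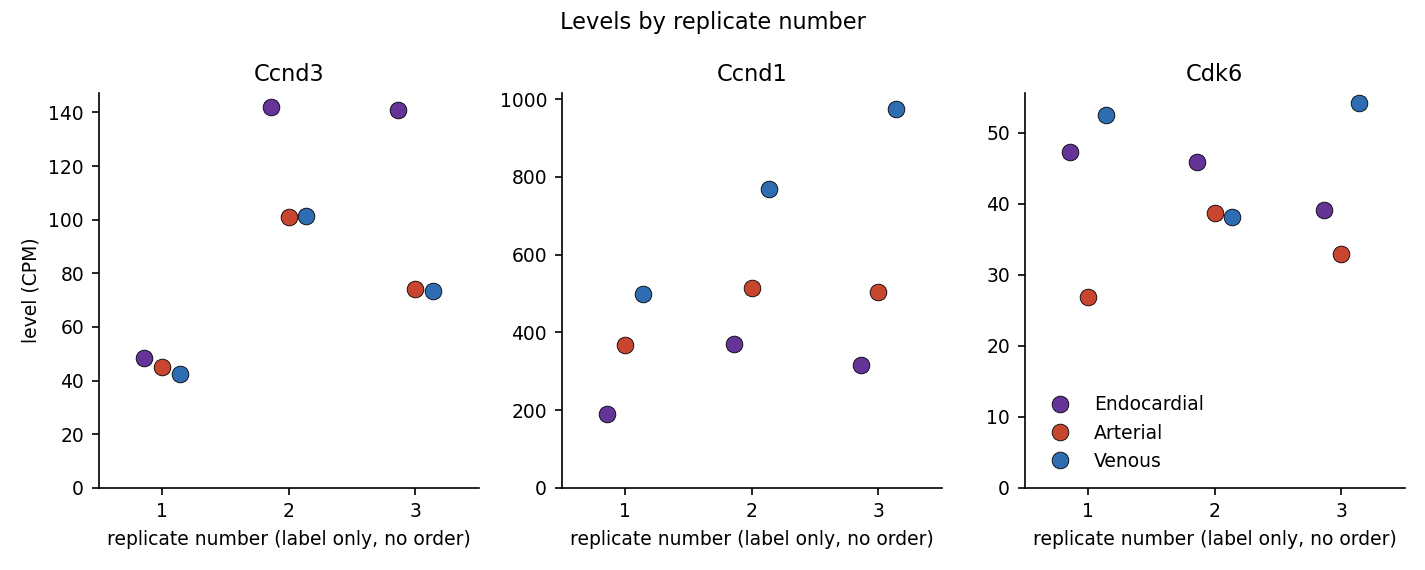
Levels (CPM) of Ccnd3, Ccnd1 and Cdk6 by replicate number, each point 1 library and colours giving the population. Ccnd3 is at 42.5 to 48.3 CPM in the 3 libraries of number 1 and at 73.3 CPM or above in all others, while Cdk6 shows no such pattern.

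The E-type cyclins, partners of Cdk2 at the G1 to S transition, stood at low levels. Ccne2 (chromosome 4, 11191351 to 11204779, plus strand) had 8.17, 11.03 and 18.4 CPM in endocardial libraries, against 26.6, 17.51 and 24.1 CPM in arterial and 28.5, 23.4 and 24.5 CPM in venous libraries. Endocardial replicate 3 lay above arterial replicate 2 and below all other coronary libraries. Ccne2 was 1.92-fold lower in endocardial libraries (log2 -0.94 ± 0.29, adjusted p = 0.0397). That call rests on most of the libraries, as it ended without arterial replicates 1 or 3, endocardial replicates 1 or 2 or any venous replicate (adjusted p = 0.0589 to 0.141). Of its exonic bases, 17.4% are shared with Ints8 on the other strand. Ccne1 had 3.17 to 4.20 CPM in endocardial, 1.18 to 4.15 in arterial and 3.17 to 4.67 in venous libraries, from 16 to 79 counts a library. At this depth no difference of Ccne1 was detectable (log2 0.16 ± 0.60, adjusted p = 0.927).

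The kinases of the D-type cyclins differed less. Cdk4 (chromosome 10, 127063534 to 127067920, plus strand) had 138, 222 and 272 CPM in endocardial libraries, against 126, 146 and 118 CPM in arterial and 194, 175 and 165 CPM in venous libraries. Endocardial replicate 1 lay among the arterial libraries, and replicates 2 and 3 lay above all coronary libraries. Cdk4 was not called (log2 0.47 ± 0.18, adjusted p = 0.103) and passed without endocardial replicate 1 (log2 0.69, adjusted p = 0.00393). Its exons share 19.7% of their bases with Tspan31 on the other strand. Cdk6 had 47.3, 45.9 and 39.2 CPM in endocardial libraries, against 26.8, 38.8 and 32.9 CPM in arterial and 52.5, 38.2 and 54.2 CPM in venous libraries (log2 0.15 ± 0.19, adjusted p = 0.727).

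The promoter of Cdk4 is shown because its sequence carries repeated E-boxes, the sites of Myc-family and other basic helix-loop-helix factors. Windows taken from RefSeq (GRCm38.p6) were used for 7 of the 10 genes. Those of Ccnd1, Ccnd2 and Ccne2 were not analysed here. The 250 bases before the start of Cdk4 lie at chr10:127063285-127063534, plus strand. Capitals mark CACGTG, and CCGCCC, the reverse complement of the GC box GGGCGG.
Cdk4: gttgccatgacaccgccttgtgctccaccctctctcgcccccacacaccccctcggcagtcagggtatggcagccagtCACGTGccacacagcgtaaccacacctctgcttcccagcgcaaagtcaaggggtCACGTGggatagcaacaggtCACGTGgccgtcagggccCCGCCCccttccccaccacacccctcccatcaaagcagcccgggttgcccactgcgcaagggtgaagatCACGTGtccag
The palindrome CACGTG occurs 4 times in this window, with no overlap between matches. It is found in 6.02% of 32851 windows of the same length, and at least 4 times in 7 of them. Myc, the growth-associated transcription factor, had 13.98, 29.7 and 24.2 CPM in endocardial libraries. It had 17.0, 24.4 and 22.7 CPM in arterial and 21.4, 25.4 and 25.1 CPM in venous libraries. Replicate 1 was the lowest library for Myc in every population, but for Cdk4 in the endocardial population only. Myc was not called (log2 0.00 ± 0.26). Its relative Mycn fell by 1.19 ± 0.24 on the log2 scale in endocardial libraries (adjusted p = 0.00249), to 16.1 ± 2.802 CPM, against 34.8 ± 4.33 in arterial and 38.6 ± 10.99 CPM in venous libraries. In the Myc network list, 2 of 9 tested genes were lower (Mycn and Mxi1) and 7 were not called. Mxi1 lost its call without any 1 of the libraries other than arterial replicate 1 (0.0526 to 0.134).

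Of the Cip/Kip inhibitors, Cdkn1a and Cdkn1b were lower in endocardial libraries, and Cdkn1c, given further on, was higher. Cdkn1a (chromosome 17, 29090976 to 29100727, plus strand) encodes p21, a target of p53 that halts the cycle in G1. It had 12.2, 12.04 and 8.96 CPM in endocardial libraries, against 20.3, 42.4 and 24.9 CPM in arterial and 27.5, 21.7 and 24.7 CPM in venous libraries. Every endocardial library lay below every coronary library, and arterial replicate 2 was the highest of all. Cdkn1a was 2.42-fold lower (log2 -1.28 ± 0.28, adjusted p = 0.00475), and the call held with each library left out (0.00164 to 0.0282).

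Cdkn1b (chromosome 6, 134920401 to 134925513, plus strand) encodes p27, an inhibitor that accumulates in resting cells. It had 49.7, 31.4 and 41.6 CPM in endocardial libraries, against 64.7, 68.4 and 54.3 CPM in arterial and 96.7, 92.4 and 92.1 CPM in venous libraries. The 3 populations did not overlap, and the venous libraries were the highest and the closest to each other (SD 2.59 CPM). Cdkn1b was 1.87-fold lower in endocardial libraries (log2 -0.90 ± 0.18, adjusted p = 0.00218), also with each library left out (0.000697 to 0.0222).

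Promoters of these inhibitors are shown because both genes fell together in endocardial libraries. The Cdkn1a window is the one before the more downstream of its RefSeq starts, at chr17:29093519-29093768, and the Cdkn1b window lies at chr6:134920151-134920400, both on the plus strand. Capitals mark the GC box GGGCGG, which Sp1-family factors bind.
Cdkn1a: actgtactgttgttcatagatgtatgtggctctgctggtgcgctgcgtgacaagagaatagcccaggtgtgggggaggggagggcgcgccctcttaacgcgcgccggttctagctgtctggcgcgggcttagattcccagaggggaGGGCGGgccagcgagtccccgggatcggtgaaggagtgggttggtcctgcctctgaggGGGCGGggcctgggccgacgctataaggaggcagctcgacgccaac
Cdkn1b: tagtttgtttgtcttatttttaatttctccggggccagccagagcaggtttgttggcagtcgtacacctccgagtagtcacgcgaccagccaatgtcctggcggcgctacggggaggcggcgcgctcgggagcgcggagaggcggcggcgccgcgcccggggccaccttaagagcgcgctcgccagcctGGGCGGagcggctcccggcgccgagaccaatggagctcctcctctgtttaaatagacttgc
The Cdkn1a window holds 2 matches and the Cdkn1b window 1, searched on both strands, while 32.7% of all windows hold at least 1. Windows of Ccne1, Cdkn2c, Ccnd3 and Cdk4, genes not called between endocardial and coronary libraries, hold matches too. The GC content is 64.8% and 64.4%, against a median of 52.4% over all windows. The window at the more upstream start of Cdkn1a (chr17:29090729-29090978) has 54.0% GC and no match to the GC box. None of the E2F words TTTCCCGC, TTTCGCGC, TTTGGCGC and TTTGCCGC, which 1.86% of windows hold, is in the windows of the 7 genes, and the forkhead word GTAAACA (3.17% of windows) is in 1 of the Ccnd3 windows and in none of the inhibitors.

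Cdkn2c (chromosome 4, 109660876 to 109667189, minus strand) encodes p18, an INK4 protein that binds Cdk4 and Cdk6. It had 3.59, 2.52 and 2.58 CPM in endocardial libraries, against 5.45, 4.72 and 6.03 CPM in arterial and 5.32, 7.04 and 8.29 CPM in venous libraries. All endocardial libraries lay below all coronary ones, on 35 to 162 counts a library. The difference was not called (log2 -1.07 ± 0.48, adjusted p = 0.175). The summed CPM of Cdkn1a, Cdkn1b and Cdkn2c was 45.9 to 65.5 in endocardial, 85.2 to 116 in arterial and 121 to 130 in venous libraries.

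Of the inhibitors outside the 10 genes, Cdkn1c was higher in endocardial libraries and Cdkn2d was not called. Cdkn1c, the Cip/Kip inhibitor p57 and an imprinted gene, had 1171, 1568 and 1336 CPM in endocardial libraries, against 227, 206 and 208 CPM in arterial and 145, 156 and 127 CPM in venous libraries. It was 7.78-fold higher in endocardial libraries (log2 2.96 ± 0.13, adjusted p = 1.53e-10) and did not overlap between them and the coronary libraries. Cdkn2d, the INK4 inhibitor p19, had 16.8 ± 5.94, 18.8 ± 3.02 and 19.03 ± 0.821 CPM in endocardial, arterial and venous libraries (log2 -0.17 ± 0.27, adjusted p = 0.796). Cdkn2a and Cdkn2b did not pass the filter for low counts. Cdkn1c rose and Cdkn1a and Cdkn1b fell in the same libraries.

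Most mitosis genes and 8 of 20 replication genes were lower in endocardial libraries. Of 18 mitosis genes 16 were lower and 2 were not called, and their summed level was 1206 to 1393 CPM in endocardial, 2873 to 4259 in arterial and 3746 to 5141 CPM in venous libraries. A lower mitosis gene lost its call with the block (adjusted p = 0.0518). Its call also ended without arterial replicate 1 or 2, endocardial replicate 1 or 2 or any venous replicate (0.054 to 0.147). Another mitosis gene was called lower with DESeq2 (0.0484). Mki67, the proliferation marker Ki-67, had 513 ± 44.7 CPM in endocardial, 1445 ± 403 in arterial and 1941 ± 369 in venous libraries (log2 -1.71 ± 0.18, adjusted p = 3.25e-06), and the spindle motor gene Kif11 fell by 1.68 ± 0.16 on the log2 scale. Of 20 E2F target genes of DNA replication 8 were lower and 12 were not called, and 5 were lower without endocardial replicate 1. More of them were called lower with DESeq2 (adjusted p = 0.0224 to 0.0495 for those added). The same held with no filter (0.000584 to 0.0312) and with the block (0.0185 and 0.0301). Pcna, the sliding clamp of DNA polymerases, had 239 ± 23.4, 413 ± 91.8 and 488 ± 60.0 CPM in endocardial, arterial and venous libraries (log2 -0.91 ± 0.16, adjusted p = 0.000623). Lower Cdkn1a and Cdkn1b and lower mitosis genes were thus measured in the same 3 libraries.

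**Figure D4:**
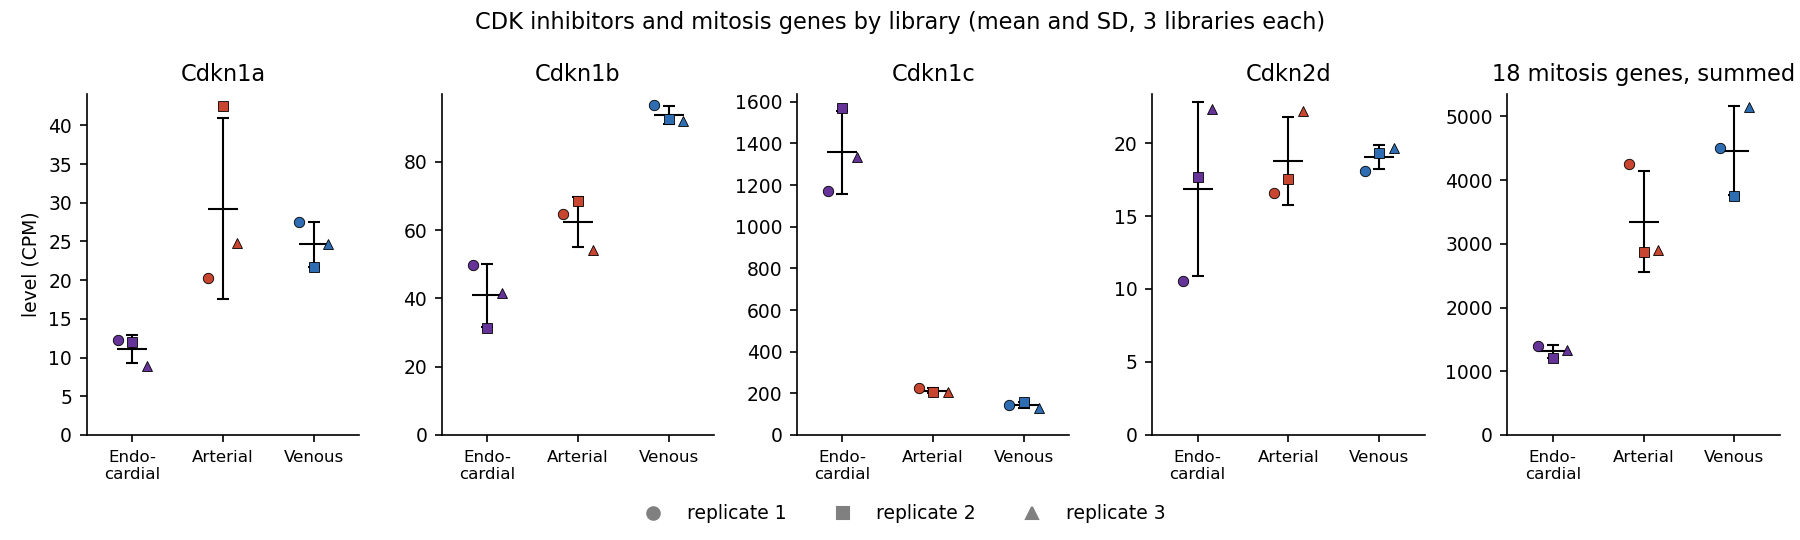
Levels (CPM, linear axes from 0) of 4 CDK inhibitor genes and the summed level of 18 mitosis genes in each library, with mean and SD. In endocardial libraries Cdkn1c is at 1171 CPM or above, while Cdkn1a, Cdkn1b and the mitosis genes are lowest there.

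Among the Rb family, E2F and DP factors, 2 of 13 were higher in endocardial libraries, 5 lower and 6 not called. Only 1 was higher without any 1 of the endocardial or venous libraries, and 3 were lower without endocardial replicate 2 or venous replicate 3. A lower gene other than those named below lost its call with RLE scaling (adjusted p = 0.0574) and without Gm42418 (0.0509). Its call also ended without arterial replicate 2 or 3, endocardial replicate 1 or 2 or any venous replicate (0.0897 to 0.231). The E2F partner genes moved in opposite directions. Tfdp2 had 90.7 ± 3.13 CPM in endocardial, 42.6 ± 10.8 in arterial and 42.7 ± 5.51 CPM in venous libraries (log2 1.09 ± 0.18, adjusted p = 0.000374), and Tfdp1 had 35.1 ± 4.03, 56.3 ± 7.85 and 74.0 ± 4.91 CPM (log2 -0.88 ± 0.18, adjusted p = 0.00202). E2f7, a repressor of the family, fell by 1.08 ± 0.22 (adjusted p = 0.00242). Rb1, the retinoblastoma gene, had 54.4 ± 16.8, 96.6 ± 15.2 and 89.5 ± 8.79 CPM (adjusted p = 0.0125), and its call ended without endocardial replicate 2 (0.0924) or 3 (0.0624). Of 7 other interphase cyclins and CDKs, Ccna2 (cyclin A2) and Cdk1 were lower by 1.37 ± 0.24 and 0.86 ± 0.17 on the log2 scale and Cdk7, of the CDK-activating kinase, was higher by 0.80 ± 0.17. Cdk2, the partner of the E-type cyclins, was not called, at 15.6 ± 1.91, 17.1 ± 7.64 and 18.7 ± 3.27 CPM (adjusted p = 0.769).

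Regulators of these proteins were counted in the same way. Of 11 genes for turnover of G1 regulators 1 was lower (2 without arterial replicate 3, with DESeq2 or with the block), Skp2, the F-box protein that marks p27 for degradation, at 28.8 ± 7.70 CPM in endocardial, 51.3 ± 18.2 in arterial and 76.1 ± 16.2 CPM in venous libraries (log2 -1.12 ± 0.25, adjusted p = 0.00595). Among 8 MuvB and DREAM partners, which repress or activate cell cycle genes, 3 were lower (1 without endocardial replicate 2), including Lin54 at log2 -1.18 ± 0.24 (adjusted p = 0.00235). Mybl2, also lower, lost its call without arterial replicate 3 or without any 1 endocardial or venous replicate (0.0513 to 0.127). Of 11 FoxO factors and quiescence-associated genes 5 were higher and 6 not called (8 higher and 1 lower with the block). Foxo1, an activator of Cdkn1b transcription, had 210 ± 40.1 CPM in endocardial libraries, against 110 ± 10.2 in arterial and 116 ± 5.06 CPM in venous libraries (log2 0.89 ± 0.15, adjusted p = 0.000394), opposite in sign to Cdkn1b. Klf2, Sesn3 and Txnip were also higher, by 0.82 ± 0.16, 1.61 ± 0.31 and 0.87 ± 0.18 on the log2 scale. The remaining higher gene lost its call with no filter (adjusted p = 0.0727). Its call also ended without arterial replicates 1, 2 or 3, endocardial 2 or 3 or venous 1 or 2 (0.0513 to 0.277).

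Of 13 p53 target genes other than Cdkn1a, 1 was higher, 1 lower and 11 not called. Bbc3, which encodes the cell death factor PUMA, was at log2 1.33 ± 0.47 (adjusted p = 0.07), and it was called higher with DESeq2 (0.0347), with the block (0.035) and without arterial replicate 1 (0.0461). The lower gene was Plk2, whose level was 264 ± 20.5 in endocardial, 502 ± 63.7 in arterial and 317 ± 44.9 CPM in venous libraries (log2 -0.60 ± 0.14, adjusted p = 0.00765). Without endocardial replicate 2 that call was lost (0.0535). The higher gene, Trp53inp1, lost its call in 7 alternatives, 6 of them libraries left out (arterial 2 or 3, endocardial 2 or 3, venous 2 or 3, at 0.0612 to 0.179), and the other the fit with no filter (0.0686). Among 8 genes of cyclin D and Cdk4/6 assembly and their regulators, 3 were lower, with Cables1 at log2 -1.67 ± 0.39 (adjusted p = 0.00742). Trib2 lost its call without arterial replicate 2, endocardial replicate 1 or 2 or venous replicate 2 (0.0553 to 0.0908). Cables2 lost its call without endocardial replicate 2 (0.0877). Immediate-early genes, which respond to growth signals and to tissue dissociation, had 5 higher and 9 not called of 14, with a summed level of 3142 to 4035 CPM in endocardial, 2238 to 2483 in arterial and 1850 to 2053 CPM in venous libraries.

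Arterial and venous libraries were compared to ask whether G1 genes separate the coronary populations. None of the 10 genes was called in DESeq2, or in edgeR with the filter for low counts and without the replicate block. In that edgeR fit 1.07% of all genes were called (0.310% higher and 0.760% lower). At an unadjusted p under 0.05 there were 4, namely Ccnd1, Cdk4, Cdk6 and Cdkn1b, against 8.48% of all genes. All 4 were lower in arterial libraries, and the median log2 fold change over the 10 genes was -0.39, against 0.03 over all genes. The libraries did not overlap for Cdk4 and Cdkn1b, against 17.3% of all genes. Cdkn1b had 54.3 to 68.4 CPM in arterial and 92.1 to 96.7 CPM in venous libraries (log2 -0.59 ± 0.20, adjusted p = 0.336), and Cdk4 had 118 to 146 and 165 to 194 CPM (log2 -0.45 ± 0.21, adjusted p = 0.58).

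Ccnd1 was lower in arterial than in venous libraries within each replicate number, at 368 and 499 CPM in number 1, 515 and 769 in number 2 and 505 and 975 in number 3 (log2 -0.69 ± 0.28, adjusted p = 0.521). It was called with the replicate number as a block (log2 -0.66, adjusted p = 0.0339) and with no filter on low counts (log2 -0.71, adjusted p = 0.00621). Cdk6 had log2 -0.56 ± 0.23 (adjusted p = 0.484), and Cdkn1a, with arterial replicate 2 above all venous libraries, 0.25 ± 0.31 (adjusted p = 0.932). Ccnd2 and Ccnd3 were nearly equal in both, at log2 0.04 ± 0.20 and 0.02 ± 0.50. Ccne1 (-0.42 ± 0.70), Ccne2 (-0.16 ± 0.32) and Cdkn2c (-0.35 ± 0.52) were not under an unadjusted p of 0.05 either. None of the 18 mitosis and 20 replication genes was called in edgeR or DESeq2, 5 and 6 were under an unadjusted p of 0.05, and 17 and 19 had a negative log2 fold change. Without arterial replicate 1, 1 mitosis gene was lower in arterial libraries. Cdkn1c had log2 0.58 ± 0.15 (adjusted p = 0.11), called by DESeq2 (0.00653).

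**Figure D5:**
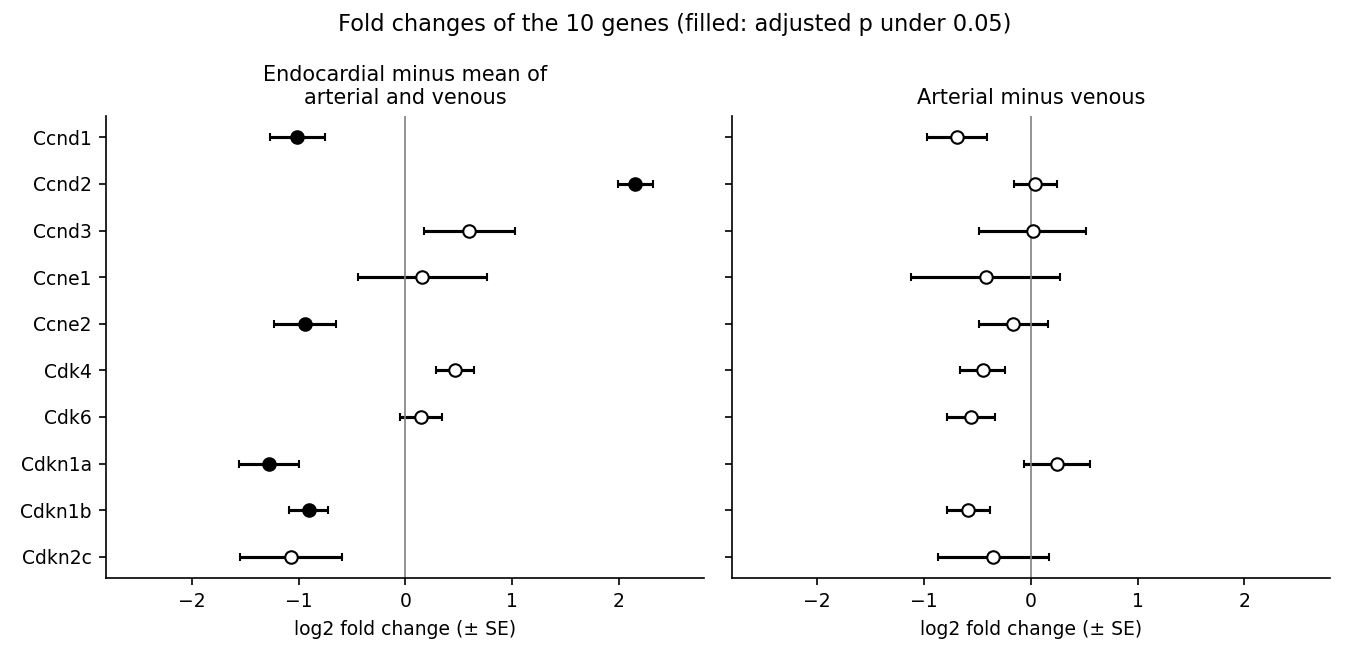
Log2 fold change with SE of the 10 genes for endocardial minus coronary libraries (left) and arterial minus venous libraries (right); filled points have an adjusted p under 0.05. The 5 filled points are all on the left, with Ccnd2 at 2.15 and the other 4 between -1.28 and -0.90.

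Each coronary population was also set against the endocardial libraries on its own. Both comparisons share the endocardial libraries with each other and with the comparison above, so that they give no separate support. Arterial against endocardial libraries called 3 of the 10 genes, 1 higher and 2 lower (5.92% and 5.75% of all genes), and venous against endocardial libraries 4, 3 higher and 1 lower (5.81% and 4.44%). Libraries did not overlap for 5 genes between arterial and endocardial (25.6% of all genes) and for 6 between venous and endocardial populations (28.2%). Ccnd2 fell in both, by 2.13 ± 0.21 in arterial (adjusted p = 1.89e-06) and 2.18 ± 0.21 in venous libraries (adjusted p = 2.57e-06) on the log2 scale. Cdkn1a rose in both, at log2 1.40 ± 0.31 in arterial (adjusted p = 0.006) and 1.15 ± 0.31 in venous libraries (adjusted p = 0.0247). The arterial call of Cdkn1a ended without arterial replicate 2 (0.0841), and the venous call without endocardial replicate 3 (0.0871) or venous replicates 1 (0.0896) or 3 (0.0722).

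Ccnd1 rose in venous libraries (log2 1.36 ± 0.29, adjusted p = 0.0101), a call that ended without venous replicate 2 (0.065). In arterial libraries Ccnd1 was not called (log2 0.67 ± 0.28, adjusted p = 0.191), but it was with the replicate block (adjusted p = 0.00308) and with no filter (0.00188). Cdkn1b rose in venous libraries (log2 1.2 ± 0.20, adjusted p = 0.000809) with each library left out. In arterial libraries it was at log2 0.61 ± 0.20 (adjusted p = 0.0644) and passed with the block (0.0417) and without endocardial replicate 1 (0.0183).

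Cdk4 fell by 0.69 ± 0.21 on the log2 scale in arterial libraries (adjusted p = 0.042), and this call ended without arterial replicates 1 or 3, endocardial replicates 2 or 3 or venous replicates 1 or 2 (0.0504 to 0.265) and when only the populations compared were fitted (0.0905). Ccne2 stood at log2 1.02 ± 0.33 in venous libraries (adjusted p = 0.0573) and passed with the block (0.0373), with DESeq2 (0.0364), with no filter (0.0213) and without endocardial replicate 3 (0.0123). In arterial libraries Ccne2 was at 0.86 ± 0.32 (adjusted p = 0.113), and passed without endocardial replicate 3 (0.0241). The other 4 genes were not called in either comparison. Cdk6 was at log2 -0.43 ± 0.23 in arterial and 0.13 ± 0.22 in venous libraries, and Cdkn2c, the INK4 inhibitor, at 0.90 ± 0.53 and 1.25 ± 0.53. Ccnd3 was at -0.59 ± 0.50 and -0.61 ± 0.50, and Ccne1 at -0.37 ± 0.70 and 0.06 ± 0.70.

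For the 6 genes called in any comparison, the closest genes in pattern were sought among 6926 named genes averaging log2 CPM 4 or above. Likeness was the root mean square distance of the log2 profiles over the 9 libraries, each centred on its own mean. Nearest to Ccnd2 were Ptpn14, a tyrosine phosphatase gene (distance 0.131), Il6st, the shared receptor subunit of the interleukin-6 family (0.166), and Igf2, an imprinted growth factor gene (0.19). They had 321, 803 and 14300 CPM in endocardial libraries, against 76.4, 204 and 3920 in arterial and 72.6, 217 and 4050 CPM in venous libraries. Nearest to Ccnd1 were the taurine transporter gene Slc6a6 (0.202), Inf2 (0.216) and the thymidine kinase gene Tk1 (0.226).

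Nearest to Cdkn1b were the genes Brip1 (0.169), Ncapd3 of the condensin complex (0.172) and the spindle gene Ckap2l (0.186), which act in DNA repair or mitosis. Ckap2l had 33 CPM in endocardial, 45.2 in arterial and 74.1 CPM in venous libraries. Nearest to Cdkn1a were Kank3 (0.208), Fancm (0.211) and the zinc transporter gene Slc30a1 (0.223). Nearest to Ccne2 were Akr1b3 (0.159), Rad18 and the checkpoint gene Bub3 (both 0.178), and among the nearest to Cdk4 were Ganab (0.123) and Rhoj (0.139). These distances describe the 9 libraries and carry no test.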

How the data were processed

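RNA of sorted endothelial cells was sequenced as single reads, per the labels' protocols, which name both a New England Biolabs kit and the NuGEN Ovation system. The authors deposited gene-level expected counts, made with CASAVA 1.8.2, cutadapt 1.3 and RSEM 1.2.3 on GRCm38, per the submitters' processing notes, with annotation release 76, per the labels. Neither aligner nor strandedness is given in the sources used here. Symbols were found for 97.67% of the features. Of the expected counts above 0, 45.5% were not whole (tolerance 0.005), and all counts were rounded.

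Genes were tested with edgeR 4.0.16 (quasi-likelihood F test, robust, TMM, minimum count of 10) in R 4.3.3 in 1 fit of 9 libraries, which left 17103 genes. The SE was taken as |log2 fold change| over the root of F. The method was tested on simulated data. DESeq2 1.42.0 was an alternative. The batch label equals the replicate number. It therefore pairs libraries, and deviations from population means correlated between libraries of 1 number at 0.083 to 0.165, 0.0364 to 0.146 and -0.0902 to 0.0924 for numbers 1, 2 and 3. Blocked values of the 10 genes are given where they change a call. For the lists they are given in part. The genes, lists and tests were chosen with earlier results of these data known. By rule, the text names all 10 genes in each comparison, up to 4 genes of smallest p per list and the 3 nearest in pattern, of which 1 is not reported here. Coordinates come from GENCODE release M21.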

Additional observations from a re-analysis of the deposited data

How the results depend on the processing

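For the 10 genes, counts of calls moved as follows. Between arterial and venous libraries the count was 0, and 1 (Ccnd1) with the replicate block or with no filter on low counts, and it was 0 with each library left out. Between endocardial and coronary libraries it was 5, 6 with the block and 3 to 5 with a library left out, with the lowest without arterial replicate 3 or venous replicate 2. Between arterial and endocardial libraries it was 3, 5 with the replicate block, 4 with no filter, 2 when only those populations were fitted and 2 to 4 with a library left out. Between venous and endocardial libraries it was 4, 5 with DESeq2, no filter or the block and 3 to 4 with a library left out, the lowest without any 1 venous replicate. Over all genes, the 183 calls between arterial and venous libraries became 410 with DESeq2, 439 with no filter and 120 to 225 with a library left out, and the 1753 between venous and endocardial libraries 2468, 2195 and 1130 to 1871 in the same order (1130 without venous replicate 3). With the block they were 225 and 2097. The block changed no call of the 10 genes beyond those given. Of 590 fold changes under alternatives, 10 changed sign, none of them called, and all with a library left out. Ranges of log2 fold changes were -0.14 to 0.15 for Ccnd2, -0.34 to 0.34 for Ccnd3 and -0.18 to 0.44 for Cdkn1a between arterial and venous libraries. For Ccne1 they were -0.035 to 0.34 for endocardial minus coronary, -0.76 to 0.01 (0.005 without arterial replicate 1) for arterial minus endocardial and -0.093 to 0.19 for venous minus endocardial libraries. The cause was not tested. RLE scaling and removal of Gm42418 changed no call of the 10 genes. Ccne1 and Cdkn2c had the fewest counts, 16 to 79 and 35 to 162 a library.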
